A study of Mus musculus with 9 samples.

Results

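The cytosolic ribosomal proteins are the protein part of the machine that translates messenger RNA. They were taken as the protein-coding genes whose symbol is Rpl or Rps with a number, with or without a closing a or x, together with Rplp0, Rplp1, Rplp2 and Rpsa. The rule found 76 genes among the 56719 listed, 46 of the large subunit and 30 of the small subunit. All 76 passed the filter on low counts that left 17704 genes for testing. The rule used no measured value.

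The 9 libraries are liver messenger RNA of C57BL/6J mice, 3 in each of 3 groups. FMT-Con A mice received oral faeces of mice with concanavalin A hepatitis for 4 weeks and then concanavalin A at 10 mg/kg into the tail vein. This lectin of the jack bean drives T cells and thereby causes hepatitis. Con A mice received phosphate-buffered saline (PBS) in place of the faeces and the same injection. WT mice were given PBS at both steps. The age of the mice is not given in the sources used here, and the labels state the sex of the mice in 2 ways that do not match. The model is an acute lectin injury that stands for autoimmune hepatitis, and livers were taken on the day of the injection.

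Nearly all of these proteins are present as a single copy in each ribosome, and their messages are among the most translated of a cell. In mammals the messages begin with a cytosine and a run of pyrimidines, the 5′ terminal oligopyrimidine (TOP) tract, through which the kinase mTORC1 and the RNA-binding protein Larp1 control their translation and stability. Several of the genes serve as reference genes in quantitative PCR. Levels are given in CPM, the reads of a gene per 1000000 reads of its library, after scaling by the TMM factor, a correction for differences in RNA composition.

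Total counts ran from 21580482 to 29466806 in FMT-Con A, from 21772376 to 25890947 in Con A and from 20513051 to 22770276 in WT. The 10 hepatocyte markers summed to 52600 to 59100 per 1000000 counts in FMT-Con A, 70400 to 73900 in Con A and 70700 to 85100 in WT. The 16 leukocyte markers summed to 266 to 346 per 1000000 counts in FMT-Con A, 297 to 482 in Con A and 48.4 to 70.6 in WT. Transcripts of skeletal muscle were high in some libraries. The 20 muscle genes summed to 20800, 1930 and 20700 per 1000000 counts in FMT-Con A, 11.8, 23.1 and 2120 in Con A and 65.5, 53.9 and 69 in WT. Transcripts of the mitochondrial genome took 7.44 to 11.7% of the counts in FMT-Con A, 5.03 to 9.96% in Con A and 19.6 to 22.4% in WT. The part of these differences in the results below was not tested, and in bulk liver fewer cells of a type and less RNA per cell cannot be told apart.

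As a whole, the ribosomal protein messages were most abundant in FMT-Con A livers. They took 1.22, 1.21 and 1.12% of all counts in FMT-Con A, 0.862, 0.972 and 0.861% in Con A and 0.867, 0.914 and 0.914% in WT. The FMT-Con A libraries lay above all the others in this share, while those of Con A and WT overlapped. All counts include the mitochondrial genome, at 19.6 to 22.4% in WT and 5.03 to 9.96% in Con A. The overlap therefore does not compare Con A and WT within nuclear messages alone. After TMM scaling the 76 genes summed to 11400, 12400 and 10400 CPM in FMT-Con A, 9980, 10300 and 9240 CPM in Con A and 8140, 8940 and 8700 CPM in WT. On this scale the groups did not overlap, and Con A lay between the other two. The TMM factors were 0.865 to 0.948 in Con A and 1.02 to 1.07 in WT, so the place of Con A above WT depended on the scaling.

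Relative to the WT mean of each gene, the median member stood at log2 ratios of 0.47, 0.49 and 0.25 in the FMT-Con A libraries and of 0.10, 0.20 and -0.05 in the Con A libraries. The WT libraries themselves stood at -0.08, 0.05 and 0.01. In FMT-Con A libraries 58, 58 and 47 of the 76 members were above every WT library, and 9, 10 and 16 were below every WT library. In Con A libraries 35, 48 and 29 were above every WT library, and 29, 17 and 33 were below. In percent, 76.3, 76.3 and 61.8% of members were above the WT range in FMT-Con A libraries and 46.1, 63.2 and 38.2% in Con A libraries, against 42.8 to 44.1% of all genes in these 6 libraries. Below it were 11.8, 13.2 and 21.1% of members in FMT-Con A libraries and 38.2, 22.4 and 43.4% in Con A libraries, against 41.9 to 44.6% of all genes.

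**Figure D1:**
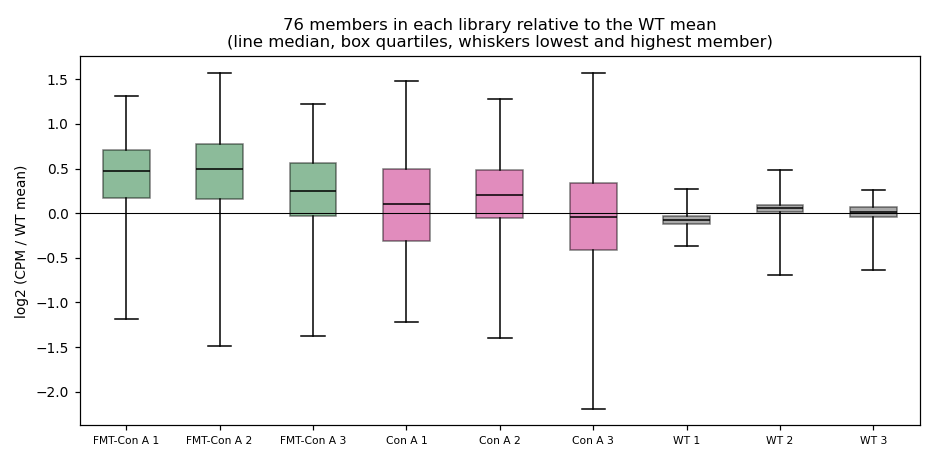
Log2 ratio of CPM to the WT mean for the 76 members (vertical axis) in each library (horizontal axis, FMT-Con A in green, Con A in pink, WT in grey). The line is the median member, the box the quartiles and the whiskers the lowest and highest member. The Con A boxes straddle 0, with medians of 0.10, 0.20 and -0.05, while the FMT-Con A medians are 0.47, 0.49 and 0.25.

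Con A against WT asks what the lectin injury did to these messages. Members moved in both directions: Rpl4, Rps4x, Rpl3, Rpl5 and Rplp0 rose between 2.16- and 2.62-fold, while Rpl35a fell by 1.54 and Rpl36 by 0.99 on the log2 scale. Of the 76 members, 26 rose and 13 fell at an edgeR adjusted p under 0.05. Over all genes tested, 32.5% rose, 30.9% fell and 63.4% did either, beside 34.2% and 17.1% of the members. The share of members that rose was thus near that of all genes, and the share that fell was below it. The median log2 fold change was 0.05 for members and 0.01 for all genes, with an SD between genes of 0.57 and 1.99. All 3 Con A libraries lay above all 3 WT libraries for 29 members and below them for 17, against 35.0% and 34.8% of all genes (69.8% in either direction). The call counts rested in part on single libraries: without WT library 1, 17 members were higher, and without Con A library 3, 8 were lower. With library totals in place of TMM factors, 16 were higher and 20 lower. That scaling lowers the median of all genes by 0.19 on the log2 scale, and calls in both directions were present under both scalings, while their balance was not the same.

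**Figure D2:**
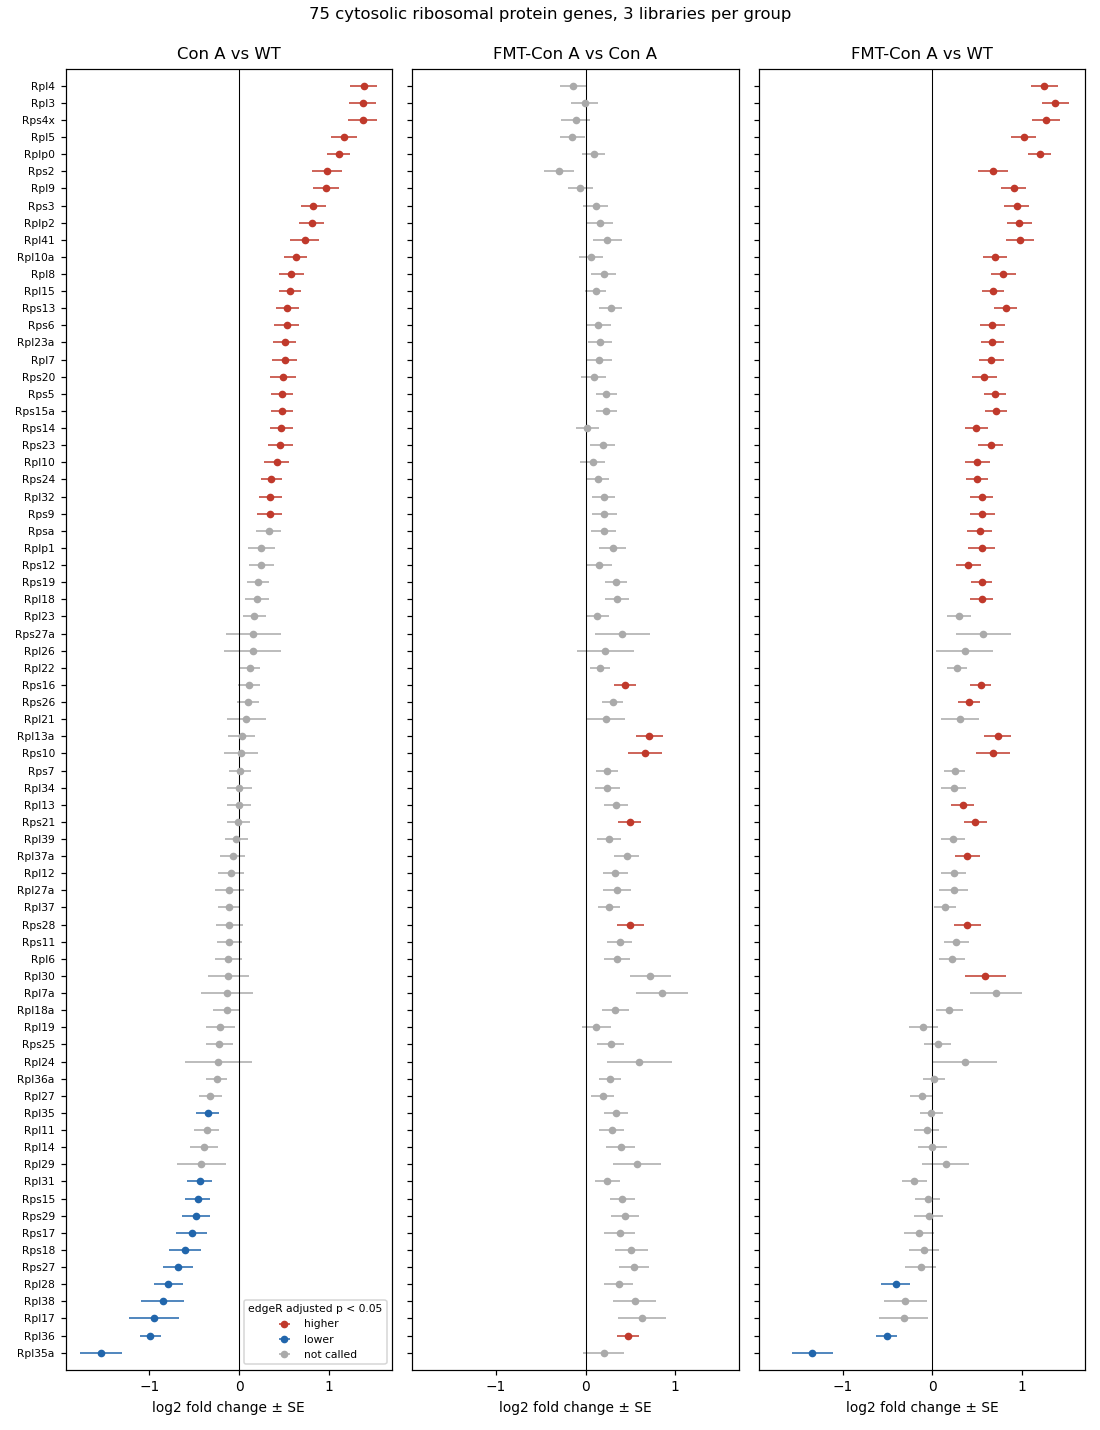
Log2 fold change with its SE (horizontal axis) for 75 of the 76 members (vertical axis, ordered by Con A vs WT) in the 3 comparisons, fitted in edgeR on 3 libraries a group. Red and blue mark members called higher and lower at adjusted p under 0.05. Con A vs WT runs from -1.54 to 1.39, and FMT-Con A vs Con A lies between -0.30 and 0.85.

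Among the members that rose, Rpl4, whose protein lines the tunnel through which the new peptide leaves, changed most (gene on chr9:64173375-64178666, GRCm38). It stood at 379, 475 and 391 CPM in FMT-Con A, 489, 426 and 459 CPM in Con A and 162, 164 and 199 CPM in WT. Every library of an injected mouse was above every WT library, and the injected groups overlapped. The log2 fold change of Con A over WT was 1.39 ± 0.15 (SE, edgeR adjusted p = 3.77e-05).

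Rps4x, a small subunit protein encoded on the X chromosome, stood at 204, 237 and 208 CPM in FMT-Con A, 244, 191 and 265 CPM in Con A and 79.3, 92.2 and 96.5 CPM in WT. Rpl3, which reaches towards the centre where peptide bonds are made, stood at 188, 224 and 175 CPM in FMT-Con A, 211, 181 and 197 CPM in Con A and 64.4, 79.9 and 82.6 CPM in WT. For both genes the injected groups overlapped and lay above all WT libraries. The log2 fold change of Con A over WT was 1.38 ± 0.16 for Rps4x (adjusted p = 4.77e-05). For Rpl3 it was 1.38 ± 0.15 (adjusted p = 3.83e-05).

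Rpl5 and Rpl11 enter the large subunit together with the 5S ribosomal RNA, and when assembly is disturbed the same pair holds the p53 ligase Mdm2. They did not move together. Rpl5 stood at 257, 285 and 249 CPM in FMT-Con A, 306, 257 and 317 CPM in Con A and 118, 134 and 139 CPM in WT. Rpl11 stood at 191, 218 and 169 CPM in FMT-Con A, 158, 174 and 140 CPM in Con A and 187, 209 and 207 CPM in WT. Con A livers were above all WT libraries for Rpl5 and below all of them for Rpl11. The log2 fold change of Con A over WT was 1.17 ± 0.14 for Rpl5 (adjusted p = 6.41e-05). For Rpl11 it was -0.36 ± 0.14 and missed the threshold (adjusted p = 0.052, from 0.00468 to 0.168 over the alternatives).

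The stalk of the large subunit recruits the elongation factors. Its scaffold Rplp0 stood at 151, 167 and 141 CPM in FMT-Con A, 155, 125 and 151 CPM in Con A and 63.5, 66.1 and 69.6 CPM in WT, a log2 fold change of Con A over WT of 1.11 ± 0.13 (adjusted p = 5.54e-05). Rplp2, which binds the scaffold as a pair with Rplp1, stood at 84.2, 91.3 and 71.7 CPM in FMT-Con A, 79.5, 63.4 and 77.6 CPM in Con A and 41.2, 47.1 and 37.8 CPM in WT. Both were above WT in every injected library, and the log2 fold change of Con A over WT was 0.81 ± 0.14 for Rplp2 (adjusted p = 0.000814). The partner Rplp1 had 0.25 ± 0.15 (adjusted p = 0.16) and Rpl12, at the base of the stalk, -0.09 ± 0.14 (adjusted p = 0.611). So 2 of the 4 stalk genes rose in Con A (50%, against 32.5% of all genes).

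Of 5 proteins at the mRNA entry and decoding site of the small subunit, 4 rose and 1 fell in Con A against WT. Rps3 had a log2 fold change of 0.83 ± 0.14 (adjusted p = 0.000492). Rps2 had 0.98 ± 0.17 (adjusted p = 0.000734). Rps2 is uncertain in level, since reads on its annotated pseudogenes numbered 47094 over the 9 libraries, against 6292 on the gene. With those reads added its log2 fold change was 1.36. At the mRNA exit and platform 2 of 8 rose and 1 fell (25% and 12.5%), and at the head and beak 1 of 9 rose and 3 fell (11.1% and 33.3%). Over all genes 32.5% rose and 30.9% fell, and the difference between these small lists was not tested. Rps6, the substrate of the S6 kinases, had 0.53 ± 0.14 (adjusted p = 0.00776), and without WT library 1 it missed the threshold (adjusted p = 0.0508).

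Among the members that fell in Con A, Rpl35a, a large subunit protein mutated in some human families with Diamond-Blackfan anaemia, changed most (gene on chr16:33056453-33060189). It stood at 14.8, 12.0 and 13 CPM in FMT-Con A, 14.6, 12.8 and 7.38 CPM in Con A and 28.8, 34.7 and 37.5 CPM in WT. Every injected library was below every WT library. The log2 fold change of Con A over WT was -1.54 ± 0.23 (adjusted p = 0.000239).

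Rpl36, another large subunit protein, stood at 75.6, 71.8 and 65.0 CPM in FMT-Con A, 52.6, 55.2 and 45.4 CPM in Con A and 99.2, 108 and 96.0 CPM in WT. Its 3 groups did not overlap, with FMT-Con A between the other two, and the log2 fold change of Con A over WT was -0.99 ± 0.12 (adjusted p = 7.61e-05). Rpl28, a large subunit protein found in eukaryotes, stood at 175, 175 and 155 CPM in FMT-Con A, 118, 161 and 111 CPM in Con A and 223, 226 and 224 CPM in WT. Here the injected groups overlapped and both lay below WT, and the log2 fold change of Con A over WT was -0.79 ± 0.16 (adjusted p = 0.00159).

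Rpl38, which mouse embryos need for the translation of certain Hox messages, stood at 44.9, 46.5 and 39.3 CPM in FMT-Con A, 23.0, 44.0 and 22.2 CPM in Con A and 53.3, 59.8 and 48.1 CPM in WT. Con A library 2 was at the level of FMT-Con A, and the other two Con A libraries were far below it. The log2 fold change of Con A over WT was -0.85 ± 0.24 (adjusted p = 0.0104). Rps27, a zinc-binding protein of the platform, had -0.68 ± 0.17 (adjusted p = 0.00563) and Rps18, at the top of the small subunit head, -0.60 ± 0.18 (adjusted p = 0.0131). Rpl17, at the opening of the exit tunnel, had -0.95 ± 0.28 (adjusted p = 0.0124). Its pseudogenes took 22110 reads against 13470 on the gene, and with them added it had -0.24 and was not called (adjusted p = 0.111).

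**Figure D3:**
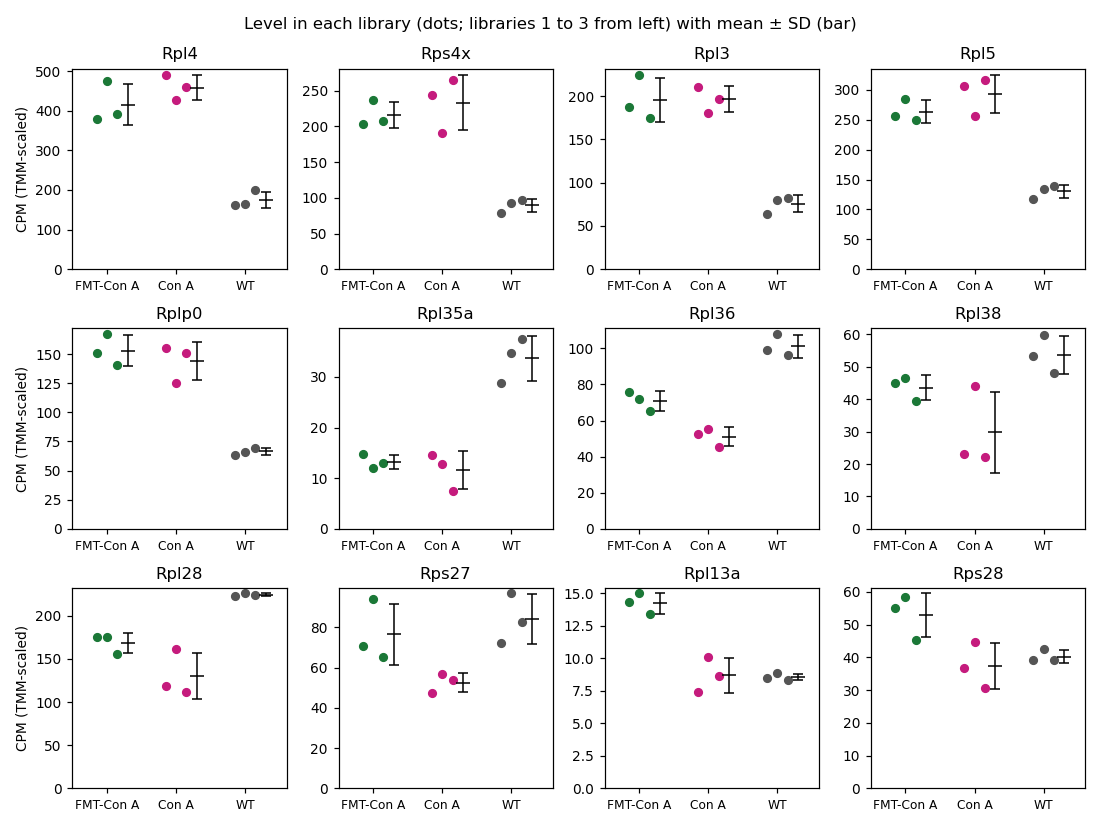
CPM (vertical axis, linear from 0) of 12 members in each library, with FMT-Con A, Con A and WT from left to right. Dots are libraries and the bar beside them is mean ± SD (n = 3). Rpl4, Rps4x, Rpl3, Rpl5 and Rplp0 are higher in both injected groups than in WT, Rpl35a, Rpl36 and Rpl28 are lower in both, and Rpl13a and Rps28 are highest in FMT-Con A.

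Members that rose and members that fell in Con A differed in the length of their coding sequences. Among the 21 members with more than 600 coding nucleotides, 14 rose and 1 fell, with a median log2 fold change of 0.53. Among the 30 members of 401 to 600 nucleotides, 7 rose and 5 fell (median 0.01), and among the 25 of 400 or fewer, 5 rose and 7 fell (median -0.07). Over all genes tested 32.5% rose and 30.9% fell. Spearman's rank correlation between coding length and the log2 fold change was 0.42 over the 76 members. Over 13549 protein-coding genes tested it was -0.02, and over the 6151 with no more than 1257 coding nucleotides, the length of the longest member, 0.05. For the length of the whole message the members had a rank correlation of 0.4, so the relation was not particular to coding length. Over all protein-coding genes tested that value was 0.03, and over those no longer than the longest member 0.12. For GC content of the message the members had a rank correlation of -0.17, and for the WT level -0.07. These points share the 9 libraries and their scaling, and the values are descriptions. Rpl41, the shortest with 75 coding nucleotides, went the other way, with 0.73 (it was singled out after its value was seen).

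**Figure D4:**
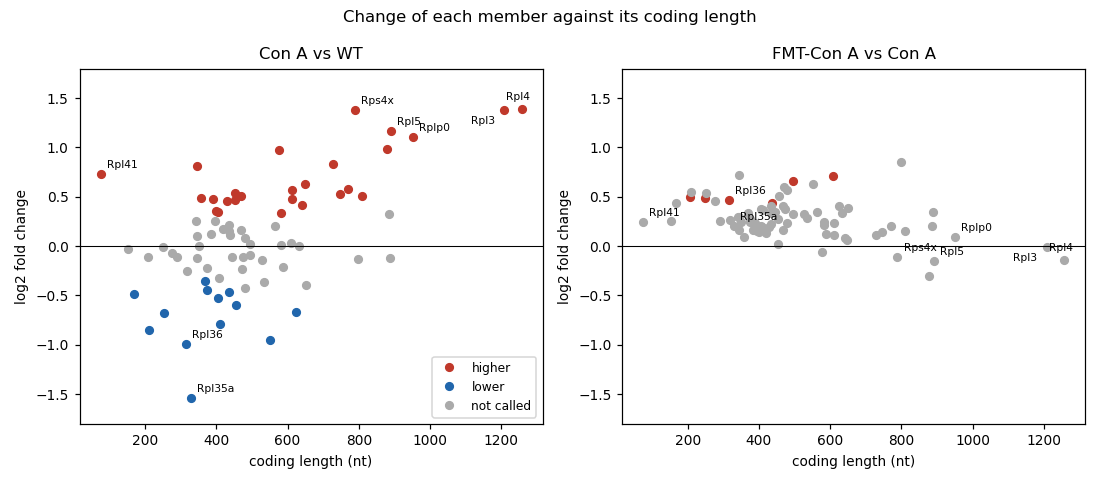
Log2 fold change (vertical axis) against coding length in nucleotides (horizontal axis) for the 76 members, in Con A vs WT (left) and FMT-Con A vs Con A (right), with red, blue and grey for higher, lower and not called. On the left the members over 600 nucleotides lie mostly above 0, with a rank correlation of 0.42. On the right it is -0.35, and members over 600 nucleotides have the lowest median of the length classes (0.14), with Rpl7a (0.85) and Rpl13a (0.71) among the highest values.

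The start of transcription was examined because the TOP tract is set there. RefSeq promoter windows of GRCm38.p6 were found for 56 of the 76 members, 66 windows in all. Shown are 5 members that rose and 5 that fell in Con A, each from 50 bases before the annotated start to 30 after it, 5′ to 3′ on the coding strand, with the longest run of pyrimidines in capitals. Those that rose are Rpl4 (chr9:64173337-64173416, plus strand), Rps4x (chrX:102189362-102189441, minus), Rpl5 (chr5:107900478-107900557, plus), Rplp0 (chr5:115559417-115559496, plus) and Rps2 (chr17:24720013-24720092, plus).
Rpl4: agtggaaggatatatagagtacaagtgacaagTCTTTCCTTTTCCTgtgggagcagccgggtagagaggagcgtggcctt
Rps4x: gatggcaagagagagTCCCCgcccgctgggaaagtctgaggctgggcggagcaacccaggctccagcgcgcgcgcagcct
Rpl5: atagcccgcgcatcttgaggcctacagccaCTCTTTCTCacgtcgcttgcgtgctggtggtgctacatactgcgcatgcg
Rplp0: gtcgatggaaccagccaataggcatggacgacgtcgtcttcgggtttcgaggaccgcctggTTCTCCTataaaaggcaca
Rps2: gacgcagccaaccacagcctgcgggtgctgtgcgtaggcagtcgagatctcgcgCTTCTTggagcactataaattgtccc

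Those that fell are Rpl35a (chr16:33056432-33056511, plus), Rpl38 (chr11:114668530-114668609, plus), Rpl28 (chr7:4792915-4792994, plus), Rps27 (chr3:90213619-90213698, minus) and Rps18 (chr17:33955636-33955715, minus).
Rpl35a: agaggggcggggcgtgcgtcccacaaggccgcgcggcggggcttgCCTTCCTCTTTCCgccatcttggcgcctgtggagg
Rpl38: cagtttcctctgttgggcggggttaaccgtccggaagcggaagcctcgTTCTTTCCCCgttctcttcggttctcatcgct
Rpl28: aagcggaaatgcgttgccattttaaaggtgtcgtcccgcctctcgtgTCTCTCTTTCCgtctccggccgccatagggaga
Rps27: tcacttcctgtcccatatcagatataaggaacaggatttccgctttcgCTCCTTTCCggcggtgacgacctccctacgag
Rps18: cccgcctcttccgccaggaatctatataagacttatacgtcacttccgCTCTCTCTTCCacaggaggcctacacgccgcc

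A run of 8 or more pyrimidines on the coding strand was present in 40 of the 66 member windows of this length (60.6%), against 9972 of 32851 over all RefSeq promoters (30.4%). Members higher in Con A held it in 10 of 20 windows (50%), from 18 genes. Members lower in Con A held it in 8 of 10 (80.0%), from 8 genes, with 3 windows for Rpl35a. This difference was not tested. Over the full 300 bases and both strands, CTTTCC was found in 50% of member windows and 26.6% of all windows. CCGGAAG, the core of ETS factor sites, was found in 36.4% and 8.86%, and TATAAA in 9.09% and 13.6%. CTTTCC and CCGGAAG overlapped in 0 member windows. A match says only that the letters are there, and the annotated starts may not be those used in liver. For Rpl35a, which has 3 windows, the window with the longest run is shown. The Rps2 window starts at 24720013 on chromosome 17, while the gene as listed here starts at 24718116. In the windows of Rplp0 and Rps2 TATAAA lies past the annotated start, at or after the end of the run in capitals. The marked runs are therefore not shown to be TOP tracts.

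FMT-Con A against Con A asks what the earlier faecal transfer changed in mice that all had the lectin. Here the members lay on one side: 70 of 76 had a log2 fold change above 0 (92.1%), against 49.2% of all genes, with medians of 0.26 and -0.01. The shift of each gene was small. The genes called higher numbered 6 and none was lower, with 6.26% of all genes higher and 10.6% lower, so the share of members called (7.89%) was near the background. All 3 FMT-Con A libraries were above all 3 Con A libraries for 28 members and below them for 0, against 14.0% and 18.8% of all genes (32.7% in either direction). At an unadjusted p under 0.05 in edgeR, 27 members were higher and 0 lower (35.5% and 0%), against 14.8% and 19.3% of all genes. After adjustment DESeq2 called 17 members higher and 0 lower (22.4% and 0%), against 8.64% and 13.8% of the 17586 genes to which it gave an adjusted p.

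The count of 6 rests on single libraries. It was 0 without Con A library 1 or without FMT-Con A library 1, 1 without Con A library 3, 2 without FMT-Con A library 3 and 23 without Con A library 2. Over all genes the count of higher calls was 1108 with all 9 libraries, 192 without Con A library 1 and 151 without FMT-Con A library 1. It was 984 without Con A library 3, 198 without FMT-Con A library 3 and 1631 without Con A library 2. The WT libraries enter the filter, the scaling and the estimate of the spread. Without WT library 1, 2 or 3 the count of members was 2, 3 and 3, and a fit to the 6 injected libraries alone gave 1. Over all genes these fits gave 666, 788, 857 and 324 higher. With library totals in place of TMM factors 37 members were higher and 0 lower. That scaling raises the median of all genes by 0.19 and the share of higher calls over all genes to 65.4%, against 37.2% with TMM. The median over members stayed between 0.23 and 0.45 over the alternatives. In FMT-Con A library 2, whose muscle transcripts were closest to those of Con A library 3, the members summed to 12400 CPM. With that library alone in its group the median log2 fold change of members over Con A was 0.36. This value rests on 1 library, and the part of the muscle transcripts in the shift was not tested.

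The called gene with the largest rise was Rpl13a, which in human myeloid cells leaves the ribosome after interferon-gamma to silence inflammatory messages. It stood at 14.3, 15 and 13.4 CPM in FMT-Con A, 7.38, 10.1 and 8.62 CPM in Con A and 8.47, 8.85 and 8.36 CPM in WT. The FMT-Con A libraries were above all others, and Con A and WT overlapped. Its counts were low for a member, with 2253 reads over the 9 libraries. In WT it stood at 8.17 CPM per kilobase of message, against 138 for the median member. The log2 fold change of FMT-Con A over Con A was 0.71 ± 0.15 (edgeR adjusted p = 0.0141). It passed the threshold in 16 of 19 alternatives (adjusted p from 0.000493 to 0.145), and not without Con A library 1, without FMT-Con A library 1 or with FMT-Con A library 2 alone.

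Rps28, at the mRNA exit, stood at 55.2, 58.3 and 45.2 CPM in FMT-Con A, 36.7, 44.7 and 30.6 CPM in Con A and 39.1, 42.4 and 39.2 CPM in WT. The lowest FMT-Con A library was just above the highest Con A library, and the log2 fold change was 0.50 ± 0.15 (adjusted p = 0.0493). Rps21, on the platform, had 0.49 ± 0.13 (adjusted p = 0.0351), and Rpl36 had 0.47 ± 0.12 (adjusted p = 0.0291). Rps16, in the head of the small subunit, had 0.44 ± 0.12 (adjusted p = 0.0396). Rps10, which is marked with ubiquitin on colliding ribosomes, had 0.66 ± 0.19 (adjusted p = 0.041), on 817 reads over the 9 libraries and with 4747 reads on its pseudogenes.

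The genes that rose most in Con A over WT did not pass the test in FMT-Con A over Con A. Rpl4 had a log2 fold change of -0.14 ± 0.15 (adjusted p = 0.532), Rps4x -0.11 ± 0.16 (adjusted p = 0.652) and Rpl3 -0.01 ± 0.15 (adjusted p = 0.985). Rpl5 had -0.15 ± 0.14 (adjusted p = 0.464) and Rplp0 0.09 ± 0.13 (adjusted p = 0.65). The sign of the first 4 depended on the scaling, since all 4 were above 0 with library totals. Of genes low in Con A, Rps27 had 0.54 ± 0.17 (adjusted p = 0.0524), Rps18 0.51 ± 0.18 (adjusted p = 0.0728), Rpl38 0.55 ± 0.24 (adjusted p = 0.135) and Rpl35a 0.20 ± 0.23 (adjusted p = 0.56). Spearman's rank correlation between coding length and the log2 fold change was -0.35 over members, -0.08 over all protein-coding genes tested and -0.12 over those no longer than the longest member. For the length of the whole message these values were -0.37, -0.11 and -0.17. The 2 comparisons share the Con A libraries, so a low Con A library lowers one difference and raises the other.

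FMT-Con A against WT shows the joint state after transfer and lectin, relative to PBS alone. Of the 76 members 40 were higher and 3 lower, that is 52.6% and 3.95%, against 31.2% and 27.9% of all genes (59.0% in either direction). The median log2 fold change was 0.40 for members and 0.03 for all genes. All FMT-Con A libraries were above all WT libraries for 47 members and below them for 7, against 35.4% and 33.7% of all genes (69.1% in either direction). The count of higher members was 32 to 43 over the alternatives.

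The small subunit had 20 of 30 members higher and 0 lower (66.7% and 0%, median 0.51). The large subunit had 20 of 46 higher and 3 lower (43.5% and 6.52%, median 0.33), against 31.2% and 27.9% of all genes. In Con A against WT the small subunit had 12 higher and 6 lower (40.0% and 20.0%, median 0.19). The large subunit had 14 higher and 7 lower there (30.4% and 15.2%, median -0.01), against 32.5% and 30.9% of all genes. The difference between the subunits was not tested.

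The largest rises were again Rpl3 with 1.37 ± 0.15 (adjusted p = 5.44e-05), Rps4x with 1.27 ± 0.16 (adjusted p = 0.000109) and Rpl4 with 1.25 ± 0.15 (adjusted p = 0.000101), followed by Rplp0 with 1.20 ± 0.13 (adjusted p = 4.73e-05) and Rpl5 with 1.02 ± 0.14 (adjusted p = 0.00021). The WT libraries are shared with the comparison of Con A against WT. Some members that were not called in Con A over WT were higher here. Rplp1 had 0.55 ± 0.15 (adjusted p = 0.00887) and Rpl13a 0.73 ± 0.15 (adjusted p = 0.00182). Rpsa, which also serves as a laminin receptor, had 0.53 ± 0.14 (adjusted p = 0.00745), with 0.33 ± 0.14 (adjusted p = 0.0574) in Con A over WT.

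Rps19, the gene most often mutated in Diamond-Blackfan anaemia in humans, had 0.55 ± 0.12 (adjusted p = 0.00345) in FMT-Con A over WT. Of the 11 anaemia genes 6 were higher and 1 lower in FMT-Con A over WT (54.5% and 9.09%, against 31.2% and 27.9% of all genes). In Con A over WT 3 were higher and 2 lower (27.3% and 18.2%), no more than the 32.5% and 30.9% of all genes.

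The 3 members lower in FMT-Con A than in WT were Rpl35a with -1.34 ± 0.23 (adjusted p = 0.00069), Rpl36 with -0.51 ± 0.12 (adjusted p = 0.00474) and Rpl28 with -0.41 ± 0.16 (adjusted p = 0.0423). With FMT-Con A library 2 alone in its group 1 was lower. The fall of Rpl28 passed the threshold in 10 of 19 alternatives (adjusted p from 0.0116 to 0.256), and in none of those that left out a WT or an FMT-Con A library.

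Levels of the members differed widely within a liver. Per kilobase of message, the median member stood at 181 CPM in FMT-Con A, 150 in Con A and 138 in WT. The highest in WT were Rpl10, a late-joining protein near the tRNA sites, at 434 CPM per kilobase, Rps29 at 423 and Rps25 at 391. The lowest were Rpl24 at 1.68, Rpl29 at 2.70 and Rpl21 at 3.75 CPM per kilobase. These 3 had only 257, 318 and 779 reads over the 9 libraries. Reads that match several places may have been dropped or shared before deposit, since the settings for them are not given in the sources used here, so a low count is not shown to be a low message level. Rpl21 alone has 15 annotated pseudogenes, with 426 reads.

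The spread between the 3 libraries of a group was small for most members, with a median coefficient of variation of 9.45% in FMT-Con A, 12.0% in Con A and 6.64% in WT. It had an order: FMT-Con A library 3 was the lowest of its group for 64 of the 76 members and Con A library 3 for 54, while Con A library 2 was the highest of its group for 50. In WT, library 1 was the lowest for 57. The largest spread was 43.2%, for Rpl17 in FMT-Con A, where library 1 stood at 96.9 CPM and the others at 53.3 and 44.5 CPM.

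Of 4 ribosomal proteins that the naming rule leaves out, 2 rose and 0 fell in Con A over WT (50% and 0%, against 32.5% and 30.9% of all genes). Rps3a1, a small subunit protein, stood at 239 CPM in FMT-Con A, 217 in Con A and 81.0 in WT, with 1.42 in Con A over WT (adjusted p = 2.25e-05). Rack1, a scaffold on the small subunit, had 0.76 (adjusted p = 0.000484). Of the paralogues, Rpl7l1 had 0.82 (adjusted p = 0.0002) and Rpl22l1 0.61 (adjusted p = 0.000775), while Rps27l had -0.47 (adjusted p = 0.0228). Rpl3l, which replaces Rpl3 in skeletal and heart muscle, averaged 37.8 CPM in FMT-Con A, 2.63 in Con A and 0.854 in WT. It went with the muscle transcripts given above. Its log2 fold change of Con A over WT was 1.67 (adjusted p = 0.308), and -4.80 without Con A library 3.

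Other TOP and translation genes gave calls mostly in one direction, while over all genes 32.5% rose and 30.9% fell in Con A over WT. Of 18 other TOP transcripts (elongation factors, Npm1, Tpt1 and the like) 13 rose and 0 fell in Con A over WT (72.2% and 0%), with a median of 0.94. Their lowest p were those of Vim, with 1.88 ± 0.11 (adjusted p = 9.45e-07), Nap1l1, with 1.18 ± 0.13 (adjusted p = 3.85e-05), and Eef1b2, a subunit of an elongation factor, with 1.13 ± 0.13 (adjusted p = 4.78e-05). Vim is also made by leukocytes and stellate cells. In FMT-Con A over Con A 1 of the 18 was higher and 0 lower (5.56% and 0%, median -0.06), against 6.26% and 10.6% of all genes. In FMT-Con A over WT 14 were higher and 0 lower (77.8% and 0%, median 0.78), against 31.2% and 27.9% of all genes. Of 8 noncoding snoRNA hosts with a TOP tract, 5 rose and 1 fell in Con A over WT (62.5% and 12.5%, median 0.72).

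Initiation factors rose in Con A over WT in 21 of 30 cases and fell in 2 (median 0.77). These shares of 70.0% and 6.67% stand beside 32.5% and 30.9% of all genes. Eif1a had 3.57 ± 0.22 (adjusted p = 1.09e-06), and Eif6, which keeps the large subunit from joining too early, had 3.39 ± 0.28 (adjusted p = 6.03e-06). Both were lower in FMT-Con A than in Con A, with log2 fold changes of -1.20 ± 0.20 for Eif1a (adjusted p = 0.00651) and -1.02 ± 0.26 for Eif6 (adjusted p = 0.0272). They were the only 2 of the 30 called lower there, and 1 was called higher (6.67% and 3.33%, median -0.07). Of all genes 10.6% were lower and 6.26% higher. The factor called higher was Eif2b1, with 0.51 ± 0.15 (adjusted p = 0.0424).

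Genes that act on TOP translation moved both ways, 7 higher and 11 lower of 24 in Con A over WT. These shares of 29.2% and 45.8% stand beside 32.5% and 30.9% of all genes. Ddit4, an inhibitor of mTORC1, averaged 140 CPM in FMT-Con A, 264 in Con A and 6.43 in WT, with 5.36 ± 0.38 in Con A over WT (adjusted p = 2.28e-06). Sesn2, another inhibitor of mTORC1, had 1.96 ± 0.17 (adjusted p = 8.38e-06) in Con A over WT and -1.29 ± 0.17 (adjusted p = 0.00269) in FMT-Con A over Con A. Akt1s1, of the same list, went the other way in both. It had -0.37 ± 0.09 (adjusted p = 0.00664) in Con A over WT and 0.33 ± 0.09 (adjusted p = 0.0426) in FMT-Con A over Con A. In the latter comparison 1 of the 24 was higher and 3 lower (4.17% and 12.5%), against 6.26% and 10.6% of all genes.

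The proteins of the mitochondrial ribosome, which are made in the cytosol from other genes, fell more often than they rose in Con A over WT, with 15 higher and 34 lower of 77 (median -0.23). These shares of 19.5% and 44.2% stand beside 32.5% and 30.9% of all genes. In FMT-Con A over Con A 18 were higher and 0 lower (median 0.23), which is 23.4% and 0%, against 6.26% and 10.6% of all genes. In FMT-Con A over WT 17 were higher and 15 lower (median -0.02), and these shares of 22.1% and 19.5% were below the 31.2% and 27.9% of all genes. Mrpl15 had -1.26 ± 0.12 (adjusted p = 1.47e-05) in Con A over WT and 0.86 ± 0.12 (adjusted p = 0.00337) in FMT-Con A over Con A. Mrps18b, with the lowest p of this list in Con A over WT, rose there, with 1.96 ± 0.15 (adjusted p = 3.85e-06). It had -0.30 ± 0.14 (adjusted p = 0.167) in FMT-Con A over Con A and 1.66 ± 0.15 (adjusted p = 1.47e-05) in FMT-Con A over WT. Of 294 annotated pseudogenes of cytosolic ribosomal proteins, 61 passed the filter, and 13 rose and 10 fell in Con A over WT (21.3% and 16.4%, both below the shares of all genes). The pseudogenes took 0.0799, 0.0861 and 0.0814% of counts in FMT-Con A, 0.0722, 0.0690 and 0.0718% in Con A and 0.0491, 0.0513 and 0.0553% in WT, and the groups did not overlap. Rps2-ps10 held 6155, 4863 and 6855 of 15944, 15030 and 18582 pseudogene reads in Con A. In WT it held 2052, 2077 and 2752 of 10076, 10714 and 12602. Rpl3-ps1 held 2345, 1908 and 2917 in Con A and 515, 604 and 816 in WT. The sums therefore do not show a rise of the pseudogenes in general.

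**Figure D5:**
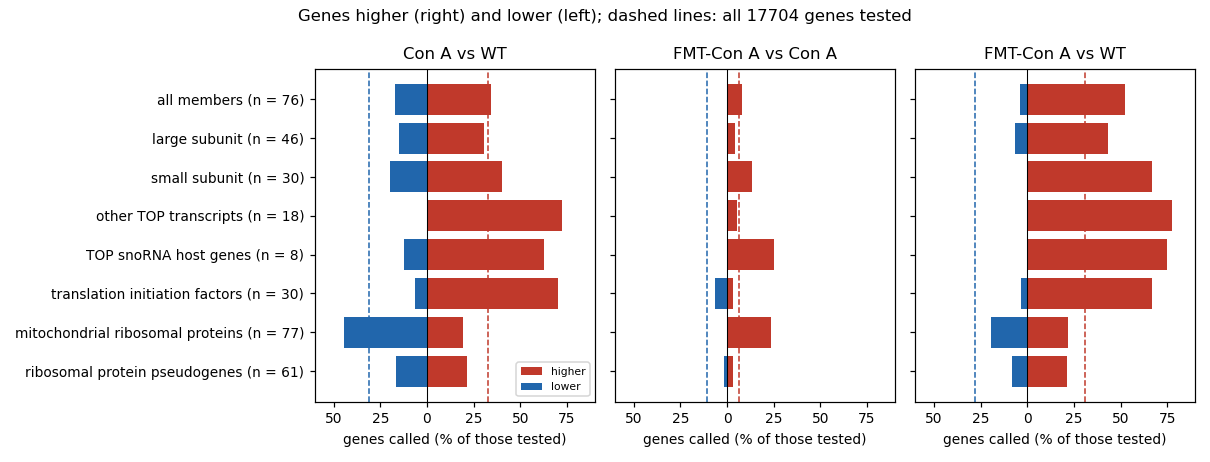
Share of each gene list called higher (red, to the right) and lower (blue, to the left) in the 3 comparisons, in percent of the genes tested, with the share of all 17704 genes as dashed lines. In Con A vs WT the ribosomal proteins have calls on both sides (34.2% and 17.1%), the other TOP transcripts and initiation factors mostly on the right and the mitochondrial ribosomal proteins mostly on the left.

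Of the 7 ribosomal genes used as PCR references, 3 rose and 1 fell in Con A over WT. These shares of 42.9% and 14.3% stand beside 32.5% and 30.9% of all genes. The log2 fold changes of the 7 ran from -0.60 for Rps18 to 1.39 for Rpl4. Rpl13a, with only 2253 reads over the 9 libraries, was within 0.03 ± 0.15 of WT in Con A (adjusted p = 0.883) but not in FMT-Con A. Of 12 other reference genes 9 rose and 1 fell in Con A over WT. Actb had 2.03 ± 0.16 (adjusted p = 3.72e-06) and Pgk1 3.18 ± 0.25 (adjusted p = 4.64e-06).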

How the data were processed

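Liver poly(A) RNA of 9 mouse libraries was sequenced from both ends on an Illumina instrument, per the labels' protocols. The deposited values are raw counts of reads per gene, made by the authors with CASAVA, HISAT2 and featureCounts on GRCm38 (mm10), per the submitters' processing notes. Versions, strand and the handling of reads that match several places are not given in the sources used here.

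Symbols, positions and lengths came from GENCODE for GRCm38. All 9 libraries were fitted in edgeR 4.0.16 (R 4.3.3) with TMM factors and filterByExpr (minimum count 10, total 15), which left 6 residual degrees of freedom. Each pair of groups was compared with the two-sided quasi-likelihood F test, adjusted by Benjamini-Hochberg over 17704 genes with a threshold of 0.05. Each SE was derived from the fold change and its F value. The code was tested on simulated data. Nothing in the labels beyond mouse numbers states separate animals, so the p-values reflect only how far these libraries vary. Promoter windows came from RefSeq, GRCm38.p6.

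The members and lists were chosen with earlier results of these data known. The rule for naming took, per comparison, the 5 largest called rises and falls, members called against the more frequent direction where there were 10 or fewer, 20 listed members, the ribosomal proteins outside the symbol rule, the paralogues, the 3 lowest p of each other list, and the 3 highest and 3 lowest levels in WT. Rps2, Rps3, Rps16, Rpl12 and Rpl41 were named after their values were seen. Rpl26l1 matched no symbol, and a few genes are not reported here by name. Alternatives were RLE factors, library totals, TMM factors without mitochondrial or muscle genes, no filter, DESeq2 1.42.0, fits to 2 groups, a replicate block, each library left out, FMT-Con A library 2 alone, and pseudogene reads added.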

Additional observations from a re-analysis of the deposited data

How the results depend on the processing

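In both comparisons with WT the counts of members stayed within 1.5 times of those reported under every alternative not named here. With library totals Con A over WT had 16 members higher, 20 lower and a median of -0.14, while FMT-Con A over Con A had 37 higher and a median of 0.45. With 1 library left out Con A over WT had 17 to 27 higher and 8 to 18 lower, FMT-Con A over WT had 2 to 4 lower, and FMT-Con A over Con A had 0 to 23 higher. In the last comparison the fit to 2 groups gave 1 higher, FMT-Con A library 2 alone 0 and DESeq2 17. With that library alone, which is assumed to vary like the other groups, FMT-Con A over WT had 1 lower. Over all genes FMT-Con A over Con A had 1108 higher and 1873 lower, against 2124 and 1122 with library totals, 324 and 832 in the fit to 2 groups, 32 and 67 with FMT-Con A library 2 alone, and 151 to 1908 and 513 to 2366 with 1 library left out. In FMT-Con A over WT the genes called lower were 4932, and 3216 with that library alone. The cause was not tested.

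Signs changed for these values, none of which was called at an adjusted p under 0.05 in the results reported. In Con A over WT library totals gave -0.16 for Rpl13a, -0.08 for Rpl22, -0.04 for Rps27a and -0.17 for Fau. With 1 library left out Rpl39 ran from -0.12 to 0.04, Rps27a ran from -0.05 to 0.39, Rpl13a ran from -0.10 to 0.13, Fau ran from -0.05 to 0.05, Rpl3l ran from -4.80 to 2.24, Rpl12 ran from -0.22 to 0.02. In FMT-Con A over Con A library totals gave 0.04 for Rpl5, 0.18 for Rpl3, 0.08 for Rps4x, 0.04 for Rpl4, 0.08 for Rpl7l1 and 0.04 for Rps27l. FMT-Con A library 2 alone gave 0.19 for Rpl3, 0.02 for Rps4x, 0.05 for Rpl4 and 0.07 for Rps27l, and the fit to 2 groups gave 0.03 for Rpl3. With 1 library left out Rpl3 ran from -0.10 to 0.08, Rps27l ran from -0.25 to 0.01. In FMT-Con A over WT library 2 alone gave 0.11 for Rpl11 and 0.16 for Rps27, and added pseudogene reads gave 0.01 for Rps18. With 1 library left out Rpl11 ran from -0.15 to 0.04, Rpl36a ran from -0.02 to 0.10, Rps18 ran from -0.14 to 0.02.

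Libraries with the same number correlated between -0.22 and 0.34 in their deviations from the group means, so the numbers were not taken as pairs. With the replicate block Con A over WT had 24 members higher and 14 lower, FMT-Con A over WT had 40 higher and 3 lower, and FMT-Con A over Con A had 6 higher and 0 lower. Of the 3 lowest members, Rpl24 had 257 reads over the 9 libraries, which limits what its values can show.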
